A study of Mus musculus with 6 samples.

Results

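Cdh10 and Olfr1259 are 2 of the 56980 genes listed for 6 single-nucleus RNA libraries of mouse white adipose tissue, and their counts are described here in T cell nuclei and in the other nuclei of each library. All mice were female C57BL/6J. Subcutaneous adipose tissue (SAT) came from the inguinal depot of mice aged 2 or 24 months, and visceral adipose tissue (VAT) from the gonadal depot of mice aged 24 months. Each of these 3 groups had 2 libraries, and the labels name no treatment. Sample labels put the older mice at 24 months, which is used throughout, whereas the series' design text gives a different age. The study's text puts 2 mice in each age group, so SAT and VAT libraries at 24 months may share mice, and VAT at 2 months was not analysed here. Both genes were chosen by their raw counts in T cell subsets at 24 against 2 months, so that contrast is given for them as a description, with no test.

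Cadherins are calcium-dependent adhesion proteins that hold neighbouring cells together and are tied to the cytoskeleton by catenins. Cdh10 encodes a classical type II cadherin best known from the brain. Olfr1259 encodes an odorant receptor, a G protein-coupled receptor of the very large family that olfactory neurons use to detect odours. T cells carry either alpha-beta or gamma-delta antigen receptors. Among the latter, type 17 cells depend on the interleukin-23 receptor encoded by Il23r, live in skin, adipose tissue and mucosa, and carry the scavenger receptors Scart1 and Scart2. These receptors mark different branches of the lineage.

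In GENCODE release M39 on GRCm39, Cdh10 (ENSMUSG00000022321) is a protein-coding gene on the plus strand, at chr15:18818713-19016388, and its canonical transcript has 12 exons. Its first bases overlap the long noncoding RNA gene C030047K22Rik on the opposite strand. Olfr1259 (ENSMUSG00000068806), named Or4c12 in that release, is a protein-coding gene on the minus strand, at chr2:89770876-89779008, with 3 exons, inside a cluster of olfactory receptor genes. Whether the authors' counting used strand is not given in the sources used here, so reads of Cdh10 and of its antisense partner cannot be told apart where they overlap. The bases just upstream of the canonical Olfr1259 transcript are shown because its UMIs lay almost wholly in T nuclei while its neighbours in the cluster had few. The window is chr2:89779009-89779258, read 5′ to 3′ on the strand of the gene. Capitals mark matches to any of 6 motifs searched on both strands. These were the nuclear receptor half-site AGGTCA, the RUNX site TGTGGT, the AP-1 site TGANTCA, the TCF or SOX site AACAAAG, the E-box CAGCTG and the TATA box TATAAA, with no overlapping matches in this window.
Olfr1259: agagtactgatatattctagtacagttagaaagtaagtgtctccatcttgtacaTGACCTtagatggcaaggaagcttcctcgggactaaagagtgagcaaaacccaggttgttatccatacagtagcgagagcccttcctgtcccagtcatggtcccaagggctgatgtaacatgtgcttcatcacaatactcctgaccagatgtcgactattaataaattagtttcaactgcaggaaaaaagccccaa
The window held 1 match, to AGGTCA on the opposite strand. Of the windows of the same length before 21770 protein-coding genes, 13.1% held AGGTCA, 13.02% TGTGGT, 6.17% TGANTCA, 4.90% AACAAAG, 11.9% CAGCTG and 11.9% TATAAA.

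After filtering, 27074 of 50859 barcodes were kept, from libraries of 8061862 to 16226690 UMIs (unique molecular identifiers, each standing for 1 captured RNA molecule). Barcodes shared between any 2 libraries made up at most 0.482%. Of the kept nuclei, 4850 were T nuclei, namely 1345 and 2240 in the libraries of 2-month SAT, 511 and 210 in those of 24-month SAT, and 12 and 532 in VAT replicates 1 and 2. Levels below are UMIs per 1000000 of all UMIs in the nuclei named (CPM), and intervals are exact 95% Poisson or Clopper-Pearson limits that cover counting error only. VAT replicate 1 had under 20 T nuclei and stayed out of the fits, except for 3 alternatives that gave it more. The summed CPM of the T marker list in T nuclei was 8661 and 9094 (2-month SAT) and 6245 and 5831 (24-month SAT), with none of its 12 genes at 0. Of 16 marker lists of other cell types, the summed level in T nuclei was lower in both 24-month than in both 2-month SAT libraries for 7, higher for 5 and overlapping for 4. B nuclei of SAT numbered 689 and 828 at 2 months and 150 and 78 at 24 months, and the summed B marker level in T nuclei was 674 and 781 against 336 and 265 CPM. The other way, the summed NK marker level in T nuclei was 70.3 and 61.5 CPM at 2 months and 187 and 249.97 CPM at 24 months, where 4 and 6 of its 8 genes were at 0. That of group 2 innate lymphoid markers was 163 and 179 against 329 and 313 CPM, and that of plasma cell markers 54.2 and 74.2 against 132 and 187 CPM. Epithelial markers were at 216 and 258 against 308 and 738 CPM, and Schwann cell markers at 26.7 and 32.8 against 43.1 and 54.2 CPM. Fibroblast markers were at 398 and 392 against 80.2 and 139 CPM, and mature dendritic markers at 481 and 574 against 229.8 and 262 CPM. The median mitochondrial share of UMIs in T nuclei was 3.60% and 2.50% at 2 months and 4.98% and 4.15% at 24 months. The part of these in the results was not tested.

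Among T nuclei of SAT, Cdh10 measured 20.8 and 24.1 CPM at 2 months and 343.5 and 334.3 CPM at 24 months. Means were 22.4 ± 2.37 and 338.9 ± 6.52 CPM (SD, n = 2 each), a ratio of 15.1, and the groups did not overlap. These levels rest on 49 and 78 UMIs at 2 months and on 287 and 111 at 24 months. In VAT at 24 months, replicate 2 was at 125.1 CPM from 97 UMIs, and replicate 1 had 2 UMIs in its 12 T nuclei. VAT replicate 2 thus lay between the ages of SAT.

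Olfr1259 measured 3.39 and 1.86 CPM in the same nuclei at 2 months, from 8 and 6 UMIs. At 24 months it measured 84.98 and 90.35 CPM, from 71 and 30 UMIs. Means were 2.62 ± 1.09 and 87.7 ± 3.80 CPM (SD, n = 2 each), a ratio of 33.4, again without overlap. VAT replicate 2 was at 50.3 CPM and VAT replicate 1 had no UMI. Over all T nuclei of SAT, 1365 of 12358 genes tested (11%) differed between ages, 6.61% higher and 4.43% lower at 24 months, by edgeR's quasi-likelihood test at a Benjamini-Hochberg adjusted p under 0.05. That count was 387 and 557 without SAT 2 months replicates 1 and 2. With a sub-cluster led by Gm10800 that stayed unnamed, which brings VAT replicate 1 into the fit, it was 0 by edgeR, with 1558 genes at an unadjusted p under 0.05. The direction of both members is the one that chose them, and nothing is read from it.

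The T nuclei were split by their UMIs into those with Scart1, Scart2 or Il23r, called Scart/Il23r nuclei from here on, and all others. Scart/Il23r nuclei made up 15.2% (13.4% to 17.3%) and 10.6% (9.34% to 11.9%) of T nuclei in the 2-month SAT libraries, 66.5% (62.3% to 70.6%) and 61.4% (54.5% to 68.0%) at 24 months, and 23.7% (20.1% to 27.5%) in VAT replicate 2. The other genes of the gamma-delta or type 17 lineage were checked in them. Trdc, the constant segment of the delta receptor chain, was at 302, 249, 390, 384 and 143 CPM in Scart/Il23r nuclei of both 2-month SAT, both 24-month SAT and VAT replicate 2 libraries, and at 0 to 18.8 CPM in other T nuclei of these libraries. Sox13, a transcription factor of the lineage, was at 101 to 202 CPM in Scart/Il23r nuclei and at 1.42 to 31.1 CPM in the others. Il17a was at 0 in all of them. Since Trac, the alpha chain constant gene, was still at 77.2 to 383 CPM there, the group is called by its rule and not by a cell type.

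Of the Cdh10 UMIs in T nuclei, 83.7% and 65.4% lay in Scart/Il23r nuclei in SAT at 2 months, 88.2% and 95.5% at 24 months, and 69.1% in VAT replicate 2. These shares were above the shares of T nuclei just given in each library. In these nuclei of SAT, Cdh10 measured 96.0 (41 UMIs) and 124.4 CPM (51 UMIs) at 2 months and 449.0 (253 UMIs) and 521.6 CPM (106 UMIs) at 24 months. VAT replicate 2 measured 398.0 CPM (67 UMIs), and its counting interval overlapped those of both 24-month SAT libraries, which it did not over all T nuclei. In T nuclei without these genes Cdh10 was at 4.14 and 9.56 CPM at 2 months (8 and 27 UMIs) and at 125.0 and 38.8 CPM at 24 months (34 and 5 UMIs). VAT replicate 2 was at 49.4 CPM there (30 UMIs). The interval of the 38.8 CPM, 12.6 to 90.6 CPM, overlapped that of B nuclei in the same library, 1.89 to 56.4 CPM. The ratio of the SAT means was thus 4.40 within Scart/Il23r nuclei, 12.0 in the other T nuclei and 15.1 over all of them. When each library's levels were weighted by the 2-month mix, the ratio was 6.38. That mix is the share of T UMIs in Scart/Il23r nuclei pooled over both 2-month libraries, which had 18.1% and 12.7%.

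Olfr1259 followed the same division, with 62.5% and 83.3% (2-month SAT), 88.7% and 86.7% (24-month SAT) and 74.4% (VAT replicate 2) of its T UMIs in Scart/Il23r nuclei. SAT libraries had 11.7 and 12.2 CPM there at 2 months (5 UMIs each) and 111.8 and 127.9 CPM at 24 months (63 and 26 UMIs), and VAT replicate 2 had 172.3 CPM (29 UMIs). Other T nuclei were at 1.55 and 0.354, at 29.4 and 31.1, and at 16.5 CPM in the same order. These levels rest on 1 to 10 UMIs per library, with 3 and 1 in SAT at 2 months. All 4 UMIs of SAT 24 months replicate 2 there came from 1 nucleus, so the ratio in these nuclei is poorly fixed. The ratio of the SAT means was 10.0 within Scart/Il23r nuclei, 31.7 in the other T nuclei and 16.8 at the 2-month mix. Within Scart/Il23r nuclei 347 of 9426 genes (3.68%) differed between ages in SAT, 1.91% higher and 1.77% lower at 24 months.

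**Figure D1:**
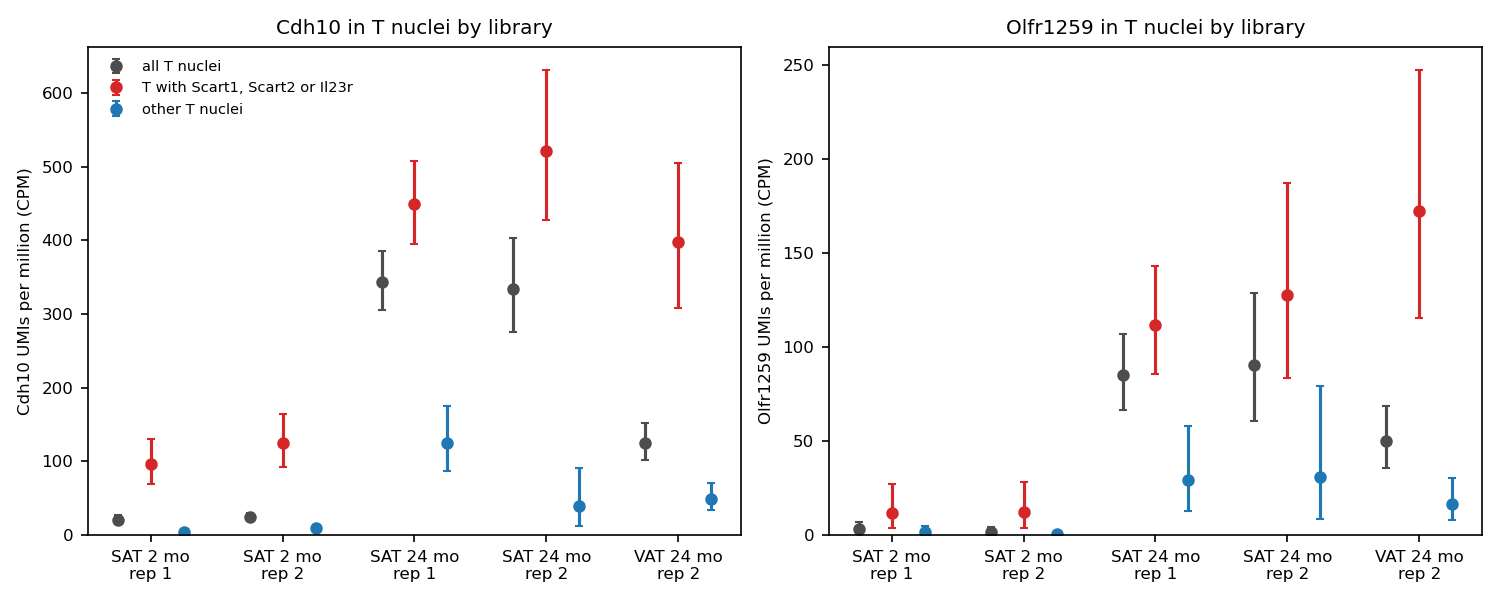
Cdh10 (left) and Olfr1259 (right) in CPM for each library, in all T nuclei, in T nuclei with Scart1, Scart2 or Il23r and in other T nuclei; bars are exact 95% Poisson limits, and VAT replicate 1 is left out for its 12 T nuclei. Both SAT libraries at 24 months lie above both at 2 months in every set, and VAT replicate 2 lies below both 24-month SAT libraries over all T nuclei (125.1 CPM of Cdh10).

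A nucleus counts as lacking Scart1, Scart2 and Il23r when no UMI of them was captured. Sub-clusters of T nuclei were also compared. The one led by Gm2682, Skap1 and Lef1 held 140 nuclei with 84 Cdh10 and 24 Olfr1259 UMIs in SAT 24 months replicate 1, of which 95 nuclei, with 58 of the Cdh10 UMIs, carried Scart1, Scart2 or Il23r. In SAT 24 months replicate 2 it held 47 nuclei with 12 Cdh10 UMIs and none of Olfr1259, and 27 of the nuclei carried one of these genes. In VAT replicate 2 it held 90 nuclei, 7.78% with one of these genes, and 1 UMI of each member. At 2 months the same sub-cluster held 466 and 841 nuclei with 3 and 8 Cdh10 UMIs, and 4.29% and 2.73% of them carried one of these genes. The sub-cluster led by Scart1, Scart2 and Il23r itself held Cdh10 in SAT at 122.2 and 142.2 CPM (2 months) and 492.9 and 597.8 CPM (24 months), and at 444.4 CPM in VAT replicate 2. Olfr1259 was there at 19.3 and 13.2, at 120.7 and 186.8, and at 177.8 CPM.

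The conventional T subsets held few UMIs of either gene. In T nuclei with Cd8a or Cd8b1, which encode the co-receptor of cytotoxic T cells, Cdh10 measured 7.23 and 10.2 CPM (6 and 12 UMIs) in the 2-month and 369.0 and 38.6 CPM (20 UMIs and 1 UMI, in 35 and 19 nuclei) in the 24-month SAT libraries, and 25.2 CPM in VAT replicate 2. Once nuclei with Scart1, Scart2 or Il23r were left out, SAT 24 months replicate 1 was at 155.6 CPM (5 UMIs in 22 nuclei) and replicate 2 had no UMI. In T nuclei with Cd4, the helper co-receptor, Cdh10 in SAT measured 8.52 and 6.69 CPM at 2 months and 171.9 and 157.3 CPM at 24 months (19 and 6 UMIs). Without nuclei that carried Scart1, Scart2 or Il23r the 24-month libraries were at 137.1 and 113.2 CPM (11 and 3 UMIs). VAT replicate 2 was at 14.5 CPM over all Cd4 nuclei and at 15.1 CPM without those that carried one of these genes. Regulatory T nuclei, those with Foxp3, held 1 Cdh10 UMI over all libraries and none of Olfr1259, in 248 nuclei of the 6 libraries. Olfr1259 had at most 4 UMIs in the Cd4 or the Cd8a or Cd8b1 nuclei of any library.

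At 24 months CD8 nuclei (Cd8a or Cd8b1 and no Cd4) were tested against CD4 nuclei (the reverse) within SAT replicate 1 and VAT replicate 2, the libraries with 20 of each. Of 2965 genes tested, 13 (0.438%) were called, 0.304% higher in CD8 and 0.135% higher in CD4 nuclei, led by Cd8a, Cd4 and Cd8b1, which define the arms. DESeq2 called 1. Cdh10 measured 253 CPM (13 UMIs) in CD8 and 111 CPM (12 UMIs) in CD4 nuclei of SAT replicate 1, and 25.5 (3 UMIs) and 14.7 CPM (2 UMIs) in VAT replicate 2. Subset levels belonged to the choice of the members, so these values carry no test. Olfr1259 did not pass the filter on low counts.

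Among the Scart/Il23r nuclei the 2 scavenger receptors divided Cdh10, a split chosen after its values were seen. Nuclei with Scart1 and no Scart2 held Cdh10 at 195.5 and 111.7 (2-month SAT), 640.1 and 634.5 (24-month SAT) and 515.8 CPM in VAT replicate 2. Nuclei with Scart2 and no Scart1 held it at 68.7 and 100.6, at 248.9 and 207.2, and at 242.8 CPM. The Scart1 nuclei were higher in each of the 5 libraries, though in SAT 2 months replicate 2 and in VAT replicate 2 the counting intervals overlapped. For Olfr1259 the Scart1 nuclei were at 181.0 and 179.8 CPM and the Scart2 nuclei at 77.1 and 77.7 CPM in SAT at 24 months, while in VAT replicate 2 the order was the opposite, with 39.7 against 202.3 CPM from 1 and 5 UMIs. At 2 months the orders differed too, with 29.0 against 0 CPM (4 and 0 UMIs) in replicate 1 and 0 against 12.6 CPM (0 and 2 UMIs) in replicate 2. The Il23r nuclei, which overlap both, held Cdh10 at 136.9 and 177.3 (2-month SAT), 460.6 and 544.9 (24-month SAT) and 410.1 CPM in VAT replicate 2.

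**Figure D2:**
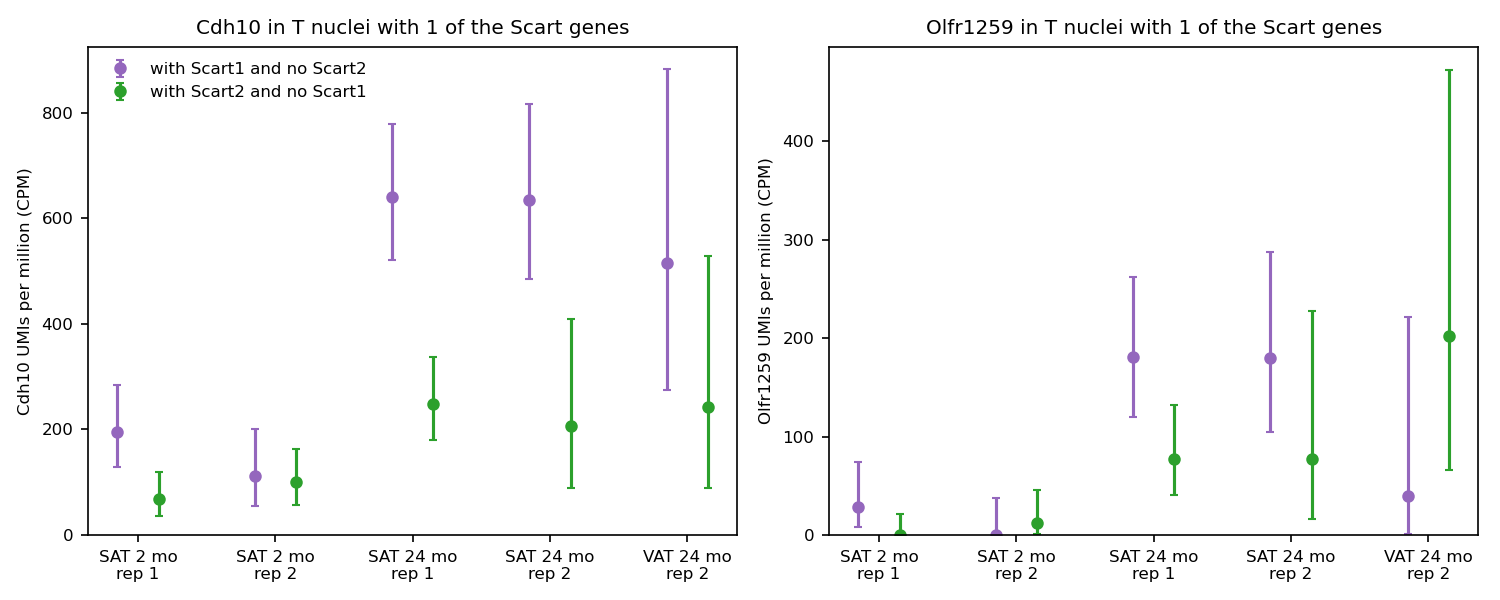
Cdh10 (left) and Olfr1259 (right) in CPM for each library, in T nuclei with Scart1 and no Scart2 and in those with Scart2 and no Scart1; bars are exact 95% Poisson limits. Cdh10 is higher in the Scart1 nuclei of all 5 libraries (640.1 against 248.9 CPM in SAT 24 months replicate 1). Its limits overlap in SAT 2 months replicate 2 and VAT replicate 2. Olfr1259 is higher in the Scart2 nuclei of VAT replicate 2 and, from 2 UMIs, of SAT 2 months replicate 2.

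To compare shares of nuclei across depths, each nucleus was thinned to 1000 UMIs, which left out none. The share of Scart/Il23r nuclei with a Cdh10 UMI was then 8.29% and 10.1% in SAT at 2 months, 26.5% and 32.6% at 24 months and 18.3% in VAT replicate 2. Unthinned shares were 14.1% and 13.5%, 34.1% and 44.2%, and 25.4%. B nuclei gave thinned shares of 0.581% and 0.362% at 2 months, 2.67% and 2.56% at 24 months and 1.11% in VAT replicate 2, which stands here for the background. Median depths were 1258 to 1716 UMIs in Scart/Il23r and 1257 to 1512 UMIs in B nuclei of these 5 libraries. Other T nuclei gave 0.175% and 0.899%, 7.60% and 4.94%, and 3.94%, of which the first lay below that of B nuclei in its library. For Olfr1259 the thinned shares in Scart/Il23r nuclei were 1.95% and 1.27%, 9.71% and 7.75%, and 12.7%. No B nucleus held an Olfr1259 UMI in any library, so 0 of 689 and 0 of 828 nuclei at 2 months allow shares of nuclei with a UMI of up to 0.435% and 0.362%, and 0 of 150 and 0 of 78 at 24 months up to 2% and 3.85%, each taken as 3 nuclei of the total. The exact upper limits were 0.534%, 0.445%, 2.43% and 4.62%.

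Many nuclei held more than 1 UMI. Of 247 T nuclei with Cdh10 at 24 months, 115 held 2 or more UMIs, and the highest count was 9. At 2 months 25 of 87 did, with a highest count of 5. For Olfr1259, 30 of 94 positive T nuclei at 24 months held 2 or more, up to 7, and 2 of 12 at 2 months. All 15 Olfr1259 UMIs outside T nuclei came singly, whereas 46 of 222 Cdh10-positive nuclei outside T nuclei held 2 or more, up to 9.

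Outside T nuclei, Olfr1259 was close to absent and Cdh10 was not. T nuclei were 17.9% of kept nuclei and held 91.1% of their Olfr1259 UMIs and 68.0% of their Cdh10 UMIs. In all other nuclei Olfr1259 was at 0 to 0.903 CPM per library, and Cdh10 at 1.68 to 13.1 CPM. In mesothelial nuclei, the lining of serous surfaces, Cdh10 measured 25.1 and 49.1 CPM (2-month SAT, 3 and 8 UMIs), 112.3 and 34.5 CPM (24-month SAT, 7 and 5 UMIs) and 2.32 and 2.14 CPM (VAT). SAT adipocytes measured 9.65 and 16.7 CPM at 2 months and 1.38 and 1.46 CPM at 24 months, the opposite order of ages to T nuclei. B nuclei were at 5.57 and 6.04 and at 34.3 and 15.6 CPM, from 2 to 8 UMIs per library.

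**Figure D3:**
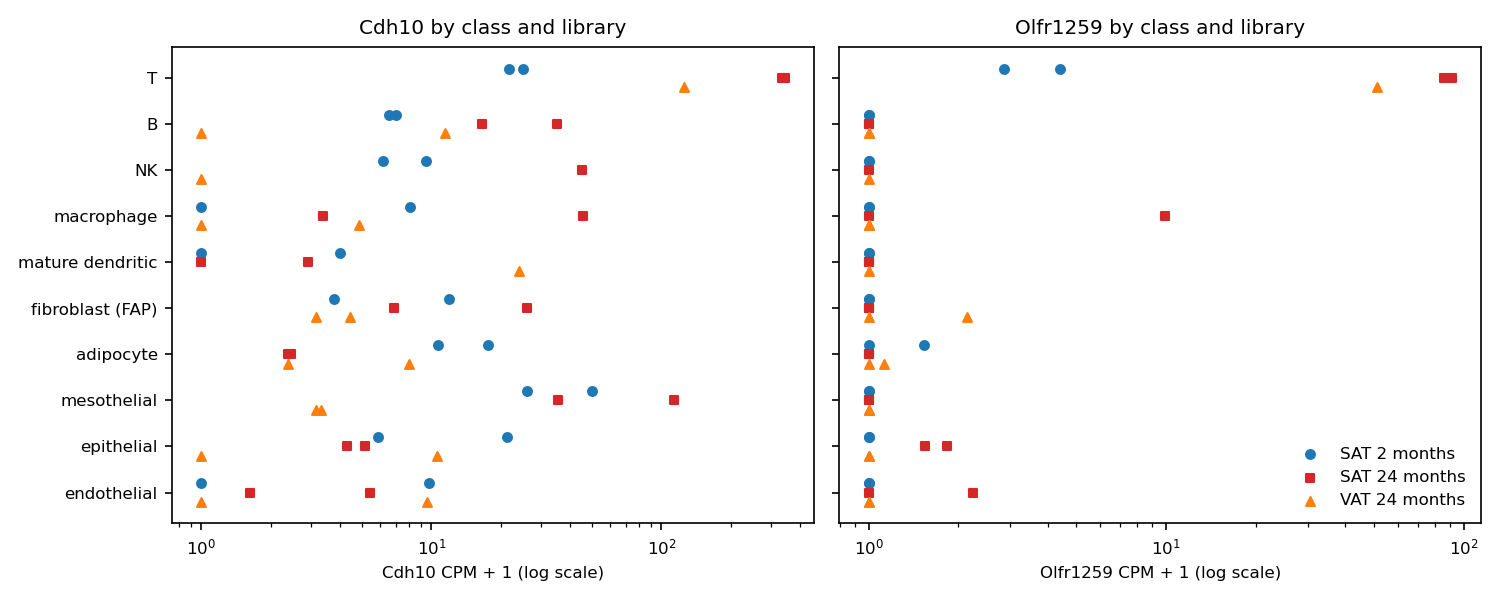
Cdh10 (left) and Olfr1259 (right) as CPM + 1 on a log axis, by cell class; each point is 1 library with at least 20 nuclei of the class, and a point at 1 means no UMI. T nuclei stand to the right of every other class in SAT at 24 months, and Olfr1259 shows no UMI in B and NK nuclei.

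Cdh10-positive T nuclei at 24 months (at least 1 UMI) were tested against Cdh10-negative ones within 3 libraries, SAT replicates 1 and 2 and VAT replicate 2, with 132, 61 and 52 positive nuclei. Of 6105 other genes tested, 177 (2.90%) were called, 68 higher (1.11%) and 109 lower (1.79%) in positive nuclei. Without VAT replicate 2 the count was 73, and with DESeq2 it was 47. Pooled over the 24-month libraries, 207 of the 247 Cdh10-positive T nuclei were Scart/Il23r nuclei, against 602 of all 1265 T nuclei. The arms thus differ in the subsets by which Cdh10 was chosen, so calls over all T nuclei may restate that choice. Clnk, an adaptor of immunoreceptor signalling, was at 598, 1022 and 858 CPM in positive and 212, 356 and 116 CPM in negative nuclei of these libraries (log2 fold change 1.90 ± 0.23, adjusted p = 5.97e-06, edgeR). Il1r1, the receptor for interleukin-1, was at 840, 941 and 732 against 242, 407 and 163 CPM (1.69 ± 0.20, adjusted p = 5.32e-06, edgeR). Both were higher in positive nuclei of all 3 libraries, and both kept the call under all 8 alternatives.

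Grk3, a kinase of G protein-coupled receptors (1.85), Ablim3 (1.80) and Tdrd9 (1.77) completed the 5 largest increases on the log2 scale, and the call was lost under 4 of 8 alternatives for Grk3, 2 of 8 for Ablim3 and 1 of 8 for Tdrd9. The lists are counted here as a description, since the arms differ in their share of Scart/Il23r nuclei. Of the gamma-delta or type 17 list without Scart1, Scart2 and Il23r, 2 of 6 tested genes were higher and none lower. Of all genes, 1.11% were higher and 1.79% lower. The naive list had 5 of 10 called (2 higher, 3 lower), and the effector, memory or exhausted list 5 of 15 (2 higher, 3 lower). The regulatory list had 2 of 4, both lower, and Foxp3, which defines a subset of the rule, was among them. Of the first list, one was Blk, a kinase of antigen receptor signalling, which lost the call under 4 of 8 alternatives. Scart1, Scart2, Il23r and Foxp3 define subsets in which Cdh10 was counted to choose it, so their values carry no test. Scart1 was at 2269, 2934 and 436 CPM in positive and 980, 789 and 126 CPM in negative nuclei, and Il23r at 1460, 1518 and 901 against 831, 639 and 204 CPM. Scart2 was at 545, 162 and 155 against 738, 485 and 54.0 CPM, lower in positive nuclei of both SAT libraries and higher in those of VAT replicate 2. Among the 5 largest decreases were genes of cell division. Kif11, a mitotic motor, had 0 UMIs in the positive nuclei of all 3 libraries against 47, 21 and 109 in negative ones (adjusted p = 1.00e-04, edgeR), and Cenpf had 0 against 43, 9 and 241. Kif23, Cdca2 and Tnfrsf4 were the remaining 3 and had no UMI in positive nuclei either. Foxp3, given without a test for the reason above, also had 0 UMIs in positive nuclei against 28, 3 and 56.

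Within Scart/Il23r nuclei alone, 13 of 3480 other genes (0.374%, 0.115% higher and 0.259% lower) separated Cdh10-positive from Cdh10-negative nuclei, by an added fit. Clnk (0.92 ± 0.18, adjusted p = 1.81e-04, edgeR) and Il1r1 (0.76) were among the 4 higher genes. The 13 include Scart1 and Scart2, by which these nuclei were admitted. A nucleus without Scart1 and Il23r had to carry Scart2, so the levels of these genes are partly set by the choice of nuclei and are given with no test. Scart2 was at 604, 171 and 243 CPM in positive and 1253, 1032 and 309 CPM in negative nuclei of SAT replicates 1 and 2 and VAT replicate 2, and Scart1 at 2514, 3095 and 684 against 1664, 1680 and 723 CPM. In positive nuclei Scart2 was thus lower and Scart1 higher in both SAT libraries, while both were lower in VAT replicate 2. Blk (0.01), which separated the arms over all T nuclei, had an adjusted p of 0.996 here. Gm2682, Tnfsf8, Ms4a4b, Rap1gap2, Il21r, Fyb, Crip1 and Mki67 were lower.

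**Figure D4:**
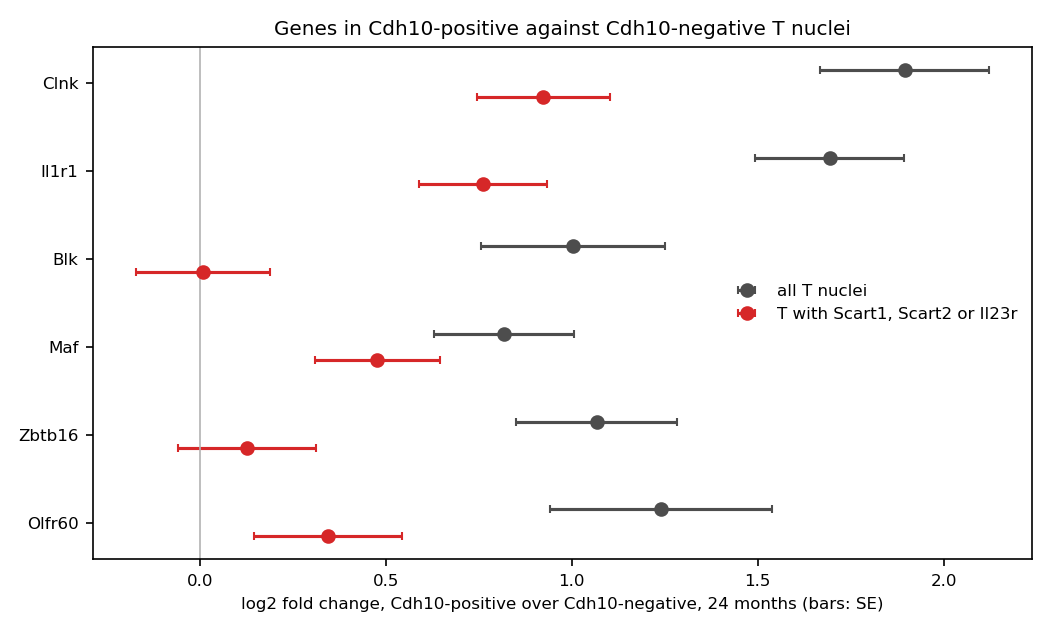
Log2 fold change of 6 genes in Cdh10-positive over Cdh10-negative T nuclei at 24 months, over all T nuclei and within those with Scart1, Scart2 or Il23r; points are fitted values and bars their SE. Clnk (1.90 and 0.92) and Il1r1 (1.69 and 0.76) lie above 0 in both, and Blk lies near 0 within the second.

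Olfr1259 in Cdh10-positive T nuclei was at 119, 192 and 113 CPM against 72.4, 47.2 and 44.0 CPM in negative ones, higher in 3 of 3 libraries. Both genes were chosen by their counts in the same T subsets, so this carries no test. At 24 months 35 T nuclei held both genes. Olfr1259 was found in 14.2% of Cdh10-positive and 5.80% of Cdh10-negative T nuclei, pooled over libraries. In Scart/Il23r nuclei it was found in 16.4% and 17.5% of Cdh10-positive against 10.7% and 6.94% of Cdh10-negative nuclei in SAT replicates 1 and 2, but in 12.5% against 18.1% in VAT replicate 2, the opposite order. Positive nuclei were deeper, with a median of 1401 against 1320 UMIs over T nuclei at 24 months.

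Olfr1259-positive against Olfr1259-negative T nuclei could be tested in SAT replicate 1 and VAT replicate 2 only, with 49 and 29 positive nuclei. Of 7901 other genes, 43 (0.544%) were called, 14 higher (0.177%) and 29 lower (0.367%). Here too the arms differ in the subsets used for the choice, as 79 of the 94 positive T nuclei at 24 months were Scart/Il23r nuclei. DESeq2 called 2, both lower, so each higher gene named here lost its call with it. Il1r1 was again higher, at 940 and 880 against 344 and 179 CPM (1.72 ± 0.31, adjusted p = 2.64e-05, edgeR), with Gm48321 (1.82), Fat3 (1.66), Cntn1 (1.60) and Hs2st1 (1.53). The call was lost under 2 of 5 alternatives for Il1r1, 3 of 5 for Gm48321 and Cntn1 and 4 of 5 for Fat3 and Hs2st1. The value of Cntn1 came mostly from VAT replicate 2, at 830 against 103 CPM, while SAT replicate 1 was at 176 against 148 CPM. Ctla4, an inhibitory receptor, had 0 UMIs in positive nuclei against 143 and 174. Cenpe, Diaph3, Cenpf and Knl1, genes of cell division, were likewise at 0. Within Scart/Il23r nuclei none of 2807 other genes was called by edgeR, and 106 genes, Olfr1259 included, had an unadjusted p under 0.05.

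The cadherin list held 30 cadherin and catenin genes, of which 17 could be tested in T nuclei of SAT. Besides Cdh10, 4 of 16 were called, against 11% of all genes. That was 1 without SAT 2 months replicate 2 or with DESeq2, and 0 by edgeR without SAT 2 months replicate 1, with 3 at an unadjusted p under 0.05. Ctnna1, which encodes alpha-catenin, was higher at 24 months, at 43.6 and 50.4 against 97.0 and 147.6 CPM (1.34 ± 0.24, adjusted p = 7.64e-04, edgeR), and so was Cdh20 (2.06 ± 0.62, adjusted p = 0.0376). Ctnna3 (-1.20, adjusted p = 0.0347) and Cdh23 (-1.50, adjusted p = 0.0498) were lower, but both turned above 0 under looser filters, under a gate of at least 2 T markers and with the sub-cluster led by Gm10800. The call was lost under 7 of 20 alternatives for Ctnna1 and under 11 of 19 for Cdh20. The median over the 16 was -0.05 against -0.01 over all genes tested. Within Scart/Il23r nuclei none of the 12 tested besides Cdh10 was called by edgeR, against 3.68% of all genes there, and 1 had an unadjusted p under 0.05.

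Of 1413 olfactory receptor genes listed, 4 passed the filter in T nuclei. Olfr60 measured 37.7 and 22.3 CPM (2-month SAT), 454.8 and 322.3 CPM (24-month SAT) and 105.8 CPM (VAT replicate 2) (log2 fold change at 24 against 2 months 3.78 ± 0.28, adjusted p = 5.02e-08, edgeR). In Scart/Il23r nuclei it was at 178.0 and 141.5, at 566.1 and 442.8, and at 386.1 CPM, and in all other kept nuclei at 0.187 to 8.58 CPM. It was also higher in Cdh10-positive than in Cdh10-negative T nuclei (1.24 ± 0.30, adjusted p = 0.0168, edgeR), a call lost under 3 of 8 alternatives. Olfr798 was lower at 24 months (-1.20 ± 0.35, adjusted p = 0.0314, edgeR), at 290.3 and 436.0 against 74.2 and 274.1 CPM, and was at 117.9 to 394.2 CPM in nuclei other than T. The call between ages was lost under 1 of 20 alternatives for Olfr60 and under 12 of 20 for Olfr798. Olfr56 gave -0.19 with an adjusted p of 0.778.

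The genes beside each member were almost silent in T nuclei, and none of the 12 could be tested. Next to Olfr1259, the receptors Olfr48, Olfr1257, Olfr1258, Olfr1260, Olfr1261 and Olfr1262 had 8, 2, 1, 2, 0 and 7 UMIs over all T nuclei, against 154 of Olfr1259. Next to Cdh10, C030047K22Rik had 29 UMIs, which came to 4.66 and 3.09 CPM (2-month SAT) and 2.39 and 6.02 CPM (24-month SAT) without separating the ages, Gm35496 had 1, and the pseudogenes Gm49139, Gm49140, Gm8328 and Gm18533 had none.

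The lists of T cell states were counted between ages in SAT, against 11% called over all genes. Of the gamma-delta or type 17 list without Scart1, Scart2 and Il23r, 6 of 6 tested genes were higher at 24 months. Il17re was among them (2.75 ± 0.25, adjusted p = 3.55e-07, edgeR). With those genes it was 9 of 9, Il23r included (2.95). Scart1, Scart2, Il23r and Foxp3 define subsets in which the members were counted to choose them, so nothing is read from their own calls. Within Scart/Il23r nuclei none of those 6 was called by edgeR, against 3.68% of all genes there, and 4 had an unadjusted p under 0.05. Of the naive list 9 of 12 were lower, led by Lef1 at 604.7 and 854.6 against 80.2 and 39.2 CPM (-3.44 ± 0.30, adjusted p = 2.34e-07, edgeR), with Satb1 (-2.48) and Ccr7 (-3.19), while Igf1r was higher (2.13). Dapl1 had no UMI in either SAT library at 24 months. Of the effector, memory or exhausted list 6 of 22 were higher, led by Maf (2.21) and Cxcr6 (2.11), and 2 lower, Nkg7 (-1.50) and Il2rb (-0.99). This list had 3 higher and none lower without SAT 2 months replicate 1, and 4 higher and 1 lower without replicate 2. The call was lost under 10 of 20 alternatives for Nkg7 and 8 of 20 for Il2rb. Of the regulatory list Il1rl1 was higher (2.58), and Ikzf4 (-1.35) and Foxp3 (-1.15) were lower. Neither lower call held with DESeq2 or without either SAT library at 2 months. Over all alternatives the call was lost under 12 of 20 for each, and Foxp3 turned above 0 in T nuclei without Scart1, Scart2 or Il23r (0.18). Of 178 receptor variable genes 2 could be tested and neither was called by edgeR, with 1 at an unadjusted p under 0.05. In bulk sums of T nuclei, fewer cells of a type and less RNA per cell cannot be told apart.

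The genes most like each member were ranked by Pearson's r of log2(CPM + 1) over 81 sums of library and class, across 13831 genes, as a description of sums that share libraries and depth. For Cdh10 they were Nebl (0.65), Edaradd (0.65), Trgc1 (0.65), Bmp7 (0.64) and Sh2d1a (0.63). Trgc1 encodes a gamma receptor constant segment. For Olfr1259 they were Gm4761 (0.75), Olfr60 (0.72), Gm9918 (0.70), ENSMUSG00000121239 (0.69) and Gm36070 (0.69). The members' own r was 0.55.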

How the data were processed

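The deposited files are matrices of whole-number UMI counts, not normalized, 1 per library. Per the study's methods, the authors captured nuclei on a Singleron chip and aligned and counted reads with Celescope against GRCm39. Its version, annotation release and use of strand are not given in the sources used here. A nucleus was kept if it had more than 500 genes, more than 1000 UMIs and less than 15% of UMIs from mitochondrial genes. They were clustered with Leiden after an own Harmony correction by library, leaving out Cdh10 and Olfr1259, and clusters were named from fixed marker lists. The score of 1.5 that an immune sub-cluster needed for a name was set after clusters were seen, and left out a sub-cluster led by Gm10800. Scrublet marked 0.133% of nuclei and thus did not work, so no doublets were removed.

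Counts were summed per library, and libraries with under 20 nuclei stayed out. edgeR 4.0.16 (R 4.3.3; TMM, filterByExpr, quasi-likelihood, Benjamini-Hochberg) was fitted over the 3 groups together for age, or with library as a block for positive against negative nuclei. DESeq2 1.42.0 was an alternative. The members were left out of the list counts between ages. The clustering and the edgeR fit were tested on simulated data. VAT was not tested against SAT, since VAT replicate 1 had 12 T nuclei. Whether libraries of a group came from separate mice is not stated per library, so p-values measure the spread between libraries. Named genes were the members, the called list genes with the lowest adjusted p (up to 5 per direction), the 5 largest called changes per direction in each positive against negative fit, the 5 genes most like each member and 3 neighbours on each side; further genes named in the positive against negative fits were added after their values were seen. A few genes and 1 sequence that these rules would name are not reported here. GENCODE M39 held 98.7% of the listed gene identifiers. The members, lists and tests were chosen with earlier results of these data known.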

Additional observations from a re-analysis of the deposited data

How the results depend on the processing

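The log2 ratio of mean Cdh10 CPM in T nuclei, SAT at 24 over 2 months, was 3.92, and lay between 3.81 and 4.03 when 1 library was left out. It was 3.71 under looser filters, 3.68 with the sub-cluster led by Gm10800, 2.14 in T nuclei with Scart1, Scart2 or Il23r and 3.58 in those without. For Olfr1259 it was 5.06, and between 4.69 and 5.56 without 1 library. It was 3.33 in T nuclei with Scart1, Scart2 or Il23r and 4.99 in those without. In the latter, all 4 UMIs of SAT 24 months replicate 2 came from 1 nucleus. The log2 ratio of the shares of T nuclei with a Cdh10 UMI was 3.50 and 3.68 after thinning.

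Numbers of called genes depended far more on the choice of nuclei. The 1365 genes called between ages became 226 under a gate of at least 2 T markers, which also lets VAT replicate 1 in, and 534 when the 4 SAT libraries alone were fitted under that gate. Looser filters gave 613 with VAT replicate 1, which they let into the fit, and 1537 with the 4 SAT libraries alone. DESeq2 gave 689. With the sub-cluster led by Gm10800, which lets VAT replicate 1 enter the fit, 0 were called by edgeR, 1558 had an unadjusted p under 0.05, and the SAT libraries alone gave 548. T nuclei with Scart1, Scart2 or Il23r gave 347 and those without 434. Without 1 library the count was 387 to 2027, with 387 without SAT 2 months replicate 1 and 557 without SAT 2 months replicate 2. Leaving out the members, the cadherin list went from 4 to 1 with DESeq2 and to 0 to 3 without 1 library, namely 0 by edgeR without SAT 2 months replicate 1 (3 at an unadjusted p under 0.05) and 1 without replicate 2. The olfactory receptor list went from 2 to 1 with DESeq2 and to 1 to 2 without 1 library, with 1 without SAT 2 months replicate 1 or 2 or SAT 24 months replicate 1. None of the neighbours could be tested.

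The 177 genes of Cdh10-positive nuclei became 47 with DESeq2, 13 within T nuclei with Scart1, Scart2 or Il23r, and 73 to 169 without 1 library, with 73 without VAT replicate 2. The 43 of Olfr1259-positive nuclei became 25 with no filter on low counts, 2 with DESeq2 and 0 within T nuclei with Scart1, Scart2 or Il23r; leaving out a library was not run for that fit or for CD8 against CD4, which have 2 libraries each. CD8 against CD4 gave 13, or 20 with no filter, and, by alternatives chosen after seeing the data, 9 scaled by library size alone and 1 with DESeq2. The causes were not tested.

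Over all alternatives, values of single named genes kept direction and call 535 times, lost the call 173 times and gained it 1 time. Directions turned for Ctnna3 (0.18 and 0.15 under the gate, with all and with SAT libraries alone, 0.74 and 0.78 likewise under looser filters, 0.88 with the sub-cluster led by Gm10800 in either fit) and Cdh23 (0.24, 0.22, 0.98, 1.03, 0.15 and 0.17 in that order), for Foxp3 in T nuclei without Scart1, Scart2 or Il23r (0.18) and for Scart2 in Cdh10-positive nuclei without SAT 24 months replicate 2 (0.0027, and -0.79 without VAT replicate 2). Within T nuclei with Scart1, Scart2 or Il23r, Olfr1259-positive nuclei gave -0.00016 for Olfr60 and -0.63 for Scart2. Deviations of same-numbered SAT libraries from their group means had r = 0.011. With 2 libraries per group both pairs give the same r, so it cannot settle whether the numbers pair the libraries. A replicate block gave 1316 calls, 3 in the cadherin and 2 in the olfactory receptor list. The planned removal of Scrublet doublets was not usable, and 5% of nuclei by score were removed instead, an alternative chosen after seeing the data, as were the fits of 4 SAT libraries alone under looser filters or the gate, those with the sub-cluster led by Gm10800 and those by Scart1, Scart2 or Il23r. Small UMI numbers limit Olfr1259 at 2 months and VAT at 24 months.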
